A study of Mus musculus with 2 samples.

Results

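The widest R-loop peaks of mouse neural stem/progenitor cells (NSPCs) are described here. They were chosen by their width alone: a peak entered when its end lay at least 10 kb (10000 bp) beyond its start in the list deposited for the DRIP-seq experiment. Of 22132 peaks, 429 met this limit, which is 1.94% of the list, and they held 6.45 Mb, or 13.2% of the bases covered by all peaks. The study immunoprecipitated RNA:DNA hybrids with the S9.6 antibody from primary NSPCs of C57BL/6 mice taken at postnatal day 7, and its methods state that the cells were kept for 48 h in 0.5 µM aphidicolin, an inhibitor of replicative DNA polymerases. The input library is not analysed here. The methods name 3 biological replicates, but a single list stands for all of them, with positions and no signal, so that a width carries no replicate error and no read depth. All values are therefore descriptions of this list, no difference was tested, and the peaks are neighbours on the same chromosomes rather than independent replicates.

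An R-loop forms when RNA pairs with the DNA strand it was copied from and leaves the other strand unpaired. R-loops are known at CpG-rich gene starts, where G-rich RNA holds its template, and at gene ends, where they take part in termination of transcription. The S9.6 antibody binds the hybrid, and DNA was cut with restriction enzymes before the immunoprecipitation, so that a fragment can be longer than the hybrid it carries. Neural stem/progenitor cells of the early postnatal brain divide and give rise to glia and neurons. A peak list has no expression values. Of 14 NSPC marker genes 10 held an R-loop peak of some width, compared to 0 of 6 markers of pluripotent cells, 1 of 6 of neurons, 1 of 5 of microglia, 1 of 3 of endothelium and 1 of 4 of myelin, while 39.6% of all protein-coding genes held one, and no marker of any of these cell types lay under a peak of 10 kb or wider.

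To show the DNA within these peaks, the 100 bp in which G most outnumbered C, read on the coding strand, is given for those of ranks 4 to 15 by width whose protein-coding genes all run in 1 direction. A G-rich coding strand is the sequence known to favour R-loops. Positions are in NCBI37/mm9, sequences are read 5′ to 3′ on the coding strand outside annotated untranslated regions, and capitals mark runs of 3 or more G.
Daam1, rank 5, chr12:73038698-73038797, plus strand, intron: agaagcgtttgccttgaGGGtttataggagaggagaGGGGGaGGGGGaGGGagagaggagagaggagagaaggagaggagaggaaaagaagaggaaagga
Ptprj, rank 6, chr2:90331561-90331660, minus strand, intron: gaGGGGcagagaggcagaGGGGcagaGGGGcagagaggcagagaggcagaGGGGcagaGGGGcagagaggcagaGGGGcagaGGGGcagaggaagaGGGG
Lasp1, rank 7, chr11:97690158-97690257, plus strand, intron: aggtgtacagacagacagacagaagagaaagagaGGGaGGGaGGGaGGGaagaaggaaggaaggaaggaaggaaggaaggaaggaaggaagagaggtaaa
Agap1, rank 8, chr1:91486266-91486365, plus strand, intron: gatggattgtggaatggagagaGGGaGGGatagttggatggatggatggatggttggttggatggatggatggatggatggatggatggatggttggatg
Rfx4, rank 9, chr10:84226592-84226691, plus strand, intron: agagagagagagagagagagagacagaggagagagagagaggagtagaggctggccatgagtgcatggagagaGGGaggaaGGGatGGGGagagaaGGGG
Brd3, rank 13, chr2:27304518-27304617, minus strand, termination site of a transcript: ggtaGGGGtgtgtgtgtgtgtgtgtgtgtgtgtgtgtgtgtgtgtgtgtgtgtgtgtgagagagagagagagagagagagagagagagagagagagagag
Ccnd2, rank 14, chr6:127101095-127101194, minus strand, promoter: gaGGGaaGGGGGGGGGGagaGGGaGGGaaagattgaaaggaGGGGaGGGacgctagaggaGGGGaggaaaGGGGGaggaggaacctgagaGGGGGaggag
Daam1, rank 15, chr12:72944870-72944969, plus strand, intron: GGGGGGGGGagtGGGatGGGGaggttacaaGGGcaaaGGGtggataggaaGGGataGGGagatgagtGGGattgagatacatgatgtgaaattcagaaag
The Ccnd2 window had 61 G and 4 C and lay just upstream of the gene's start. The Agap1 window had 50 G and 0 C and consisted largely of a simple tandem repeat, as did the Ptprj window with 59 G and 11 C and the Brd3 window with 52 G and 0 C. Such stretches were not confined to the coding strand. Over the 271 peaks with protein-coding genes of 1 direction, the largest excess of G in any 100 bp had a median of 39 bases, and the largest excess of C on the same strand a median of 40. The excess of G was the larger in 124 of the 271 peaks (45.8%) and equal in 13.

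Averaged over the whole peak, the coding strand leaned to G. In 73.8% of these 271 peaks the coding strand held more G than C, compared to 74.7% of the 1352 such peaks of 5 to 10 kb and 57.0% of the 5322 under 1 kb. The median skew, the excess of G over C divided by their sum, was 0.028 in the wide peaks and 0.047 in peaks of 1 to 2 kb, where it was highest of the 5 width classes. Runs of 4 or more G on the coding strand numbered 4.62 per kb and runs of 4 or more C 4.49 per kb, so that both strands held G-runs at nearly the same density.

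The 429 widths ranged from 10.0 to 56.7 kb with a median of 12.5 kb and quartiles of 10.9 and 16.2 kb. Widths of at least 15 kb were listed for 137 peaks, of at least 20 kb for 70 and of at least 30 kb for 19. The limit cuts through a continuous series. The narrowest peaks inside it were 10.005 kb wide at Pgpep1, a peptidase gene, 10.011 kb at Cct2, a subunit of the TRiC chaperonin, and 10.013 kb at 2410002F23Rik and Acpt. The widest outside it were 9.998 kb wide at Arhgef2, 9.998 kb at Mettl6 and 9.984 kb at Mul1, a mitochondrial ubiquitin ligase gene.

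Beyond the 3 widest, the leading peaks lay in 2 kinds of place. The first kind was compact groups of genes. At rank 10 the 34.2 kb peak chr7:4426621-4460862 covered Ppp1r12c, a regulatory subunit of myosin phosphatase, and reached into Eps8l1 and Tnnt1. The 34.0 kb peak of rank 11, chr15:81655236-81689274, overlapped Tef, a circadian PAR bZIP factor, and Tob2, an antiproliferative gene, and its midpoint fell between genes. The peak of rank 12, chr14:55512750-55545684, was 32.9 kb wide and overlapped Pabpn1, the nuclear poly(A)-binding protein, Slc22a17 and Efs.

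The second kind was a single gene, either inside it or over one or both of its ends. Daam1, a formin that acts in planar cell polarity, held the peaks of ranks 5 and 15, chr12:73014502-73055048 (40.5 kb) and chr12:72942435-72973754 (31.3 kb). Both were wholly intragenic and together covered 44.6% of the 161 kb gene, and their GC contents were 45.4% and 44.4%, below the first quartile of all wide peaks (48.9%). The peak of rank 6, chr2:90306276-90346803, lay inside Ptprj, a receptor tyrosine phosphatase gene, and was 40.5 kb wide with a GC content of 46.0%. Lasp1, which encodes an actin-binding LIM and SH3 protein, was covered for 90.3% of its 39.8 kb by the peak of rank 7, chr11:97659263-97696206, which held the gene start and stopped short of the gene end. Rfx4, a winged-helix factor of brain midline development and cilia, held the peak of rank 9, chr10:84220704-84256233 (35.5 kb), and another of 20.2 kb. Brd3, a bromodomain protein of the BET family, held the peak of rank 13, chr2:27295478-27327224 (31.7 kb), which ran over the gene end and covered 42.1% of the gene. Ccnd2, the D-type cyclin that drives progenitors through G1, lay whole inside the peak of rank 14, chr6:127072726-127104148, which was 31.4 kb wide for a gene of 25.3 kb. Among protein-coding genes of at least 5 kb that were covered end to end, Ccnd2 was the longest, followed by Strn4 (25.04 kb), Ppp2r1a (20.6 kb), the scaffold subunit of protein phosphatase 2A, Ppp1r12c (20.2 kb) and Tle2 (16.3 kb), a Groucho co-repressor.

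**Figure D1:**
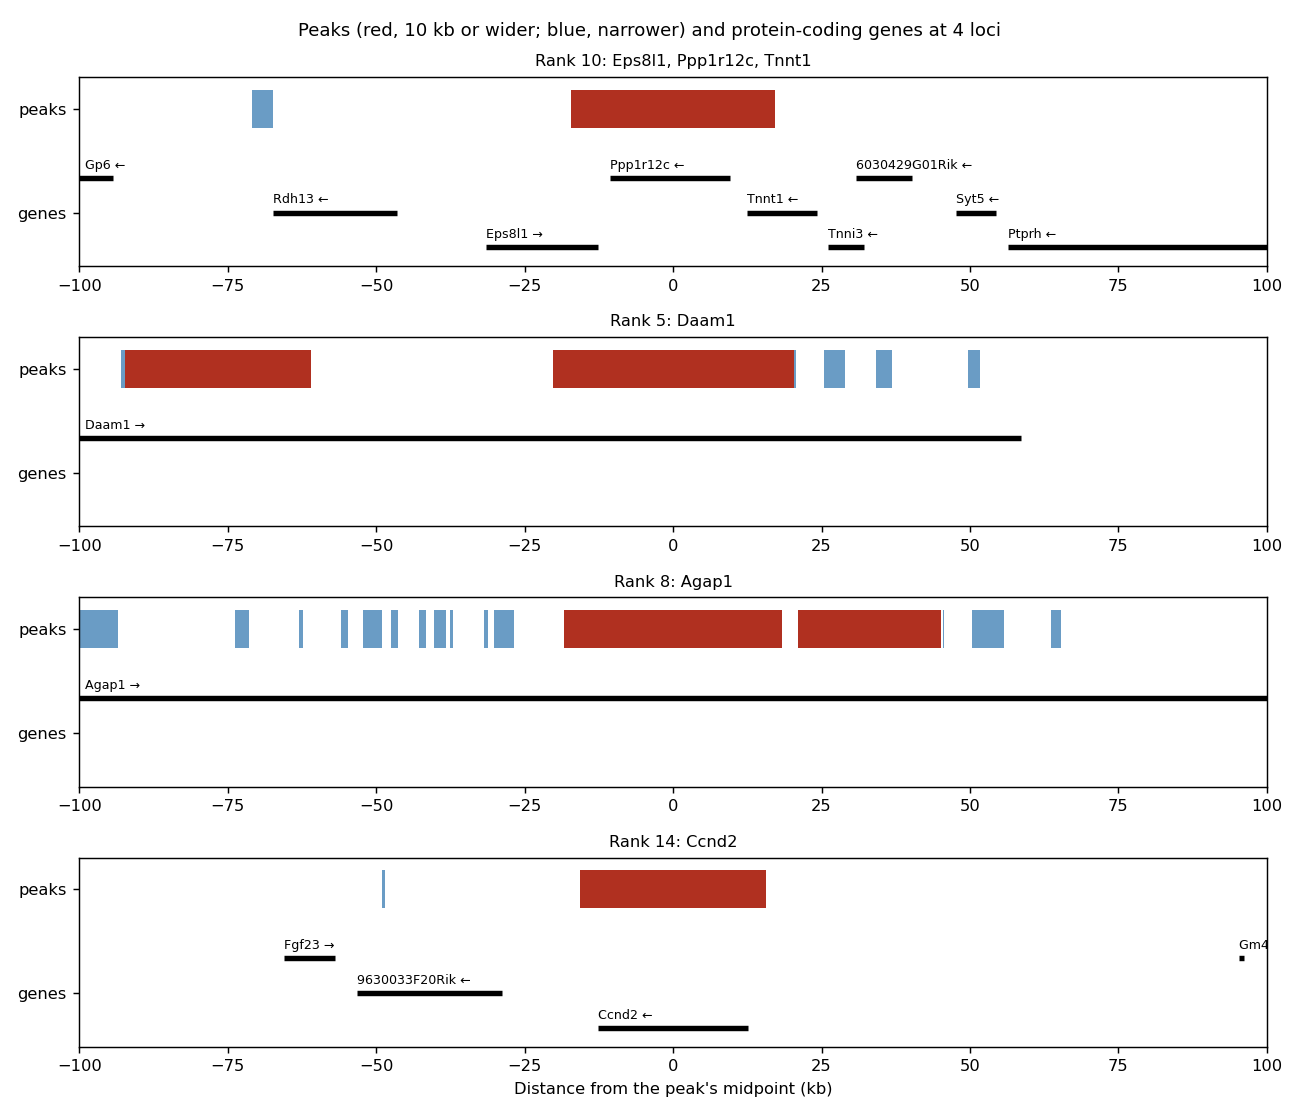
Maps of 4 of the leading loci, with R-loop peaks as bars (red, 10 kb or wider; blue, narrower) and protein-coding genes as black lines with arrows for their direction, by distance from the midpoint of the peak of the given rank in kb. The peak of rank 10 spans several genes, those of ranks 5 and 8 lie inside Daam1 and Agap1 among other peaks, and that of rank 14 covers Ccnd2 with 1 other peak within 100 kb.

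Of the 22367 protein-coding genes annotated in GENCODE M1 for this build, 662 overlapped a peak of 10 kb or wider by at least 1 bp, which is 2.96% of all and 7.47% of the 8858 with any peak. These genes had a median length of 16.3 kb, compared to 28.8 kb for genes with narrower peaks alone and 9.57 kb for genes without a peak. The wide peaks covered a median of 43.6% of each. Whole genes lay inside for 140 of the 662, with a median length of 5.80 kb. These lengths rest on counting every gene touched. Of the wide peaks 47.3% touched 2 or more protein-coding genes, compared to 6.13% of narrower peaks. With the peak midpoint inside the gene 374 genes counted, and their length is not given here. Of the 528 protein-coding genes of at least 300 kb, 11 overlapped a wide peak (2.08%), compared to 2.96% of all protein-coding genes. Among the 11 was a read-through model of 4435 kb, Gm20388, that spans many other genes. A longer gene has more room to be touched, and the share among long genes with any peak is not given here.

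A protein-coding gene was overlapped by 416 of the 429 peaks (96.97%), and 425 overlapped an annotated gene of some kind. The protein-coding share was 93.1% for peaks of 5 to 10 kb and 73.9% for all 21703 narrower ones, and a wider interval touches a gene more readily. A single protein-coding gene was overlapped by 213 peaks (49.7%, exact binomial 95% interval 44.8 to 54.5%), which covers counting error only, 2 by 147 (34.3%) and 3 or more by 56 (13.1%). The most, 6, lay under the 27.6 kb peak chr11:70457870-70485448. They were Pfn1, the actin monomer-binding profilin, Eno3, a muscle enolase, Slc25a11, a mitochondrial carrier, Rnf167, Spag7 and Camta2. A start and an end of protein-coding genes were both held by 145 peaks (33.8%), a gene end without a start by 138 (32.2%), a start without an end by 46 (10.7%), and neither by 100 (23.3%).

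**Figure D2:**
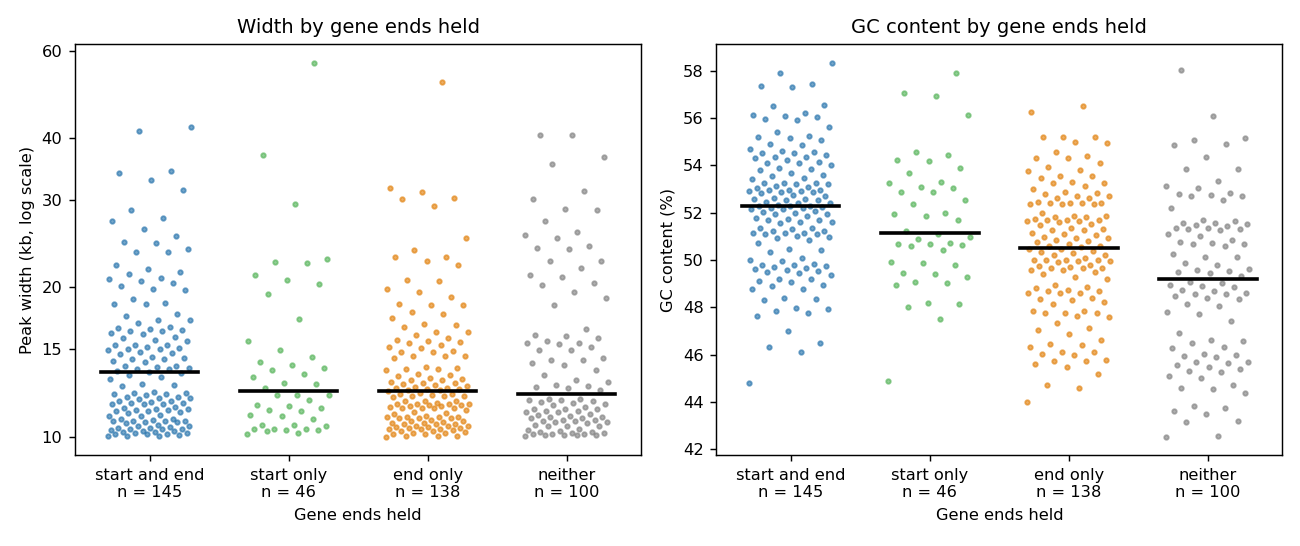
Each point is 1 of the 429 wide peaks, grouped by whether it holds the start, the end, both or neither of protein-coding genes, with its width in kb on a log scale (left) and its GC content in percent (right); black lines are medians. Median widths lie between 12.2 and 13.5 kb in all groups, while median GC content goes from 52.3% with start and end to 49.2% with neither.

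Wide peaks held gene ends more often than gene starts. A gene end (TES) lay in 66.0% of the wide peaks and a gene start (TSS) in 44.5%, compared to 37.3% and 27.1% of the 1751 peaks of 5 to 10 kb, 12.6% and 21.4% of those of 2 to 5 kb, and 3.69% and 13.6% of those of 1 to 2 kb. A wider interval holds more of everything, so the same was set against the covered length. Per megabase the wide peaks held 71.9 gene ends and 41.5 gene starts, those of 5 to 10 kb held nearly the same, 74.5 and 48.2, and peaks of 1 to 2 kb held 27.6 and 107. Within 1 kb of the midpoint, a window of 2 kb that is alike for all peaks, a gene end was found in 15.9% of wide peaks and a start in 3.96%, compared to 14.7% and 6.91% for peaks of 5 to 10 kb and 8.53% and 15.5% for peaks of 2 to 5 kb. The balance thus shifted towards gene ends between 2 and 10 kb, with little difference between the 2 widest classes once length was allowed for. Among peaks with only 1 kind of gene end, the end accounted for 75% in the widest class and 19.4% in the narrowest.

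**Figure D3:**
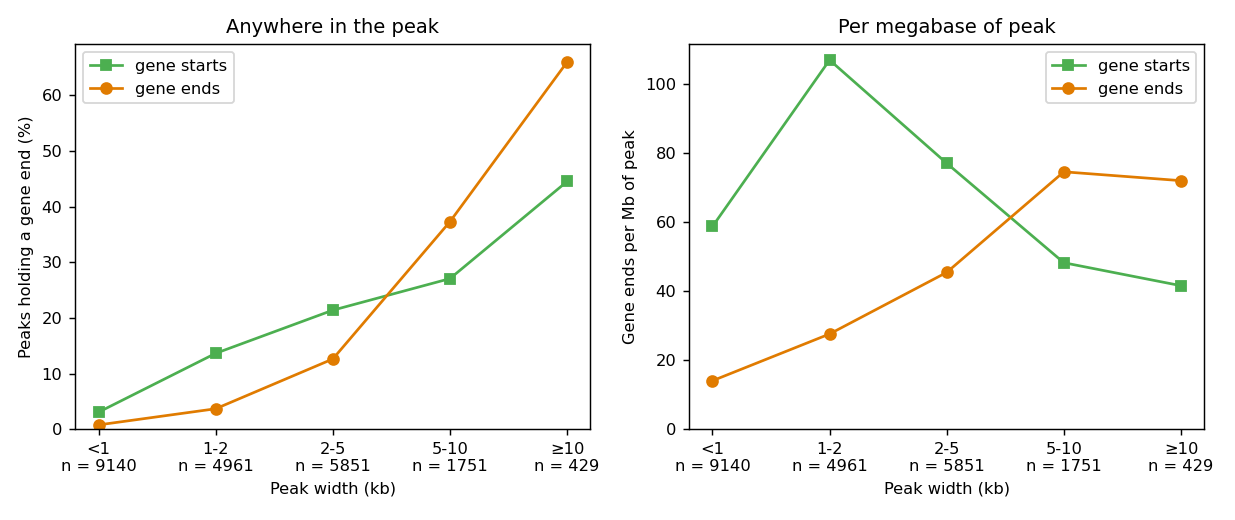
Starts (green squares) and ends (orange circles) of protein-coding genes by peak width in 5 classes, as the percentage of peaks that hold one (left) and as the number per Mb of peak (right). The lines cross between 2 and 10 kb in both panels, and peaks of 10 kb or wider hold 71.9 ends and 41.5 starts per Mb.

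Where a wide peak touched a single protein-coding gene and only its end, it ran a median of 3634 bp past the annotated end (quartiles 1947 and 5622 bp, 75 peaks), which was 27.5% of the peak's width. In the 36 peaks with a single gene and only its start, the stretch upstream of the start had a median of 1674 bp, or 12.3% of the width. The 85 peaks inside a single gene with neither end were spread along it: 26 had their midpoint in the opening part when the gene was cut into 3 equal lengths, 32 in the middle and 27 in the last. Those genes had a median length of 64.7 kb, where a peak of at least 10 kb can lie inside only a gene longer than itself.

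Some wide peaks joined adjacent genes. The sequence between adjacent protein-coding genes lay whole inside a wide peak for 175 pairs, of which 75 had ends facing (42.9%), 20 had starts facing (11.4%) and 80 ran in the same direction (45.7%). Of all 7357 adjacent pairs under 10 kb apart, 28.7% had ends facing and 21.1% starts facing. Peaks of 5 to 10 kb showed nearly the same split (45.5% and 15.3% of 222 pairs), whereas those under 5 kb held mostly pairs with starts facing (52.8% of 284). The gap between the genes had a median of 3.26 kb in all pairs under 10 kb apart and 1.115 kb inside wide peaks. It was 0.73 kb inside peaks of 5 to 10 kb and 0.229 kb inside those under 5 kb. A peak can hold only gaps shorter than itself, and pairs of like distance were not compared.

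By gene part, in which each base takes its highest-ranking annotation with promoters first (from 1 kb before a TSS to 100 bp after it) and termination sites next (from 100 bp before a TES to 1 kb after it), the midpoints of the wide peaks lay in introns for 201 peaks (46.9%), in termination sites for 85 (19.8%), in promoters for 59 (13.8%), in coding exons for 30 (6.99%), in 3′ UTRs for 27 (6.29%), between genes for 21 (4.90%) and in noncoding exons for 6 (1.4%). No midpoint lay in a 5′ UTR. These shares depend on how promoters are drawn: with promoters of 2 kb to each side of the TSS, 35.0% of midpoints fell in promoters and 11.9% in termination sites, and with protein-coding transcripts alone 6.06% and 15.4%. For all narrower peaks the share was 8.13% in termination sites and 23.6% between genes. For those of 5 to 10 kb it was 17.9% and 10.3%, nearer to the wide peaks. Counted by bases, wide peaks were 15.7% termination site, compared to 2.55% of the assembled genome, and 8.88% intergenic, compared to 56.9%. The introns held 50.7% of their bases and 35.9% of the genome.

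GC content rose a little with width while its spread narrowed. The wide peaks had a median of 51.1% (SD 3.08 over 429 peaks, range 42.5 to 58.3%), compared to 50.4% (SD 3.80) at 5 to 10 kb, 49.7% at 2 to 5 kb, 48.7% at 1 to 2 kb and 47.3% (SD 6.41) below 1 kb. A longer stretch averages over more sequence, and the difference between neighbouring medians was smaller than the SD in each class. The 10 kb to each side of a wide peak had a median of 48.4%, compared to 44.7% beside the narrowest peaks, and 84.6% of wide peaks were richer in GC than their flanks, by a median of 2.44 percentage points. That step was 2.17 points at 5 to 10 kb and 2.78 points at 1 to 2 kb. Within the wide peaks, width and GC content were weakly related (Pearson's r -0.13, Spearman's rho -0.08, over 429 peaks that share chromosomes and isochores).

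**Figure D4:**
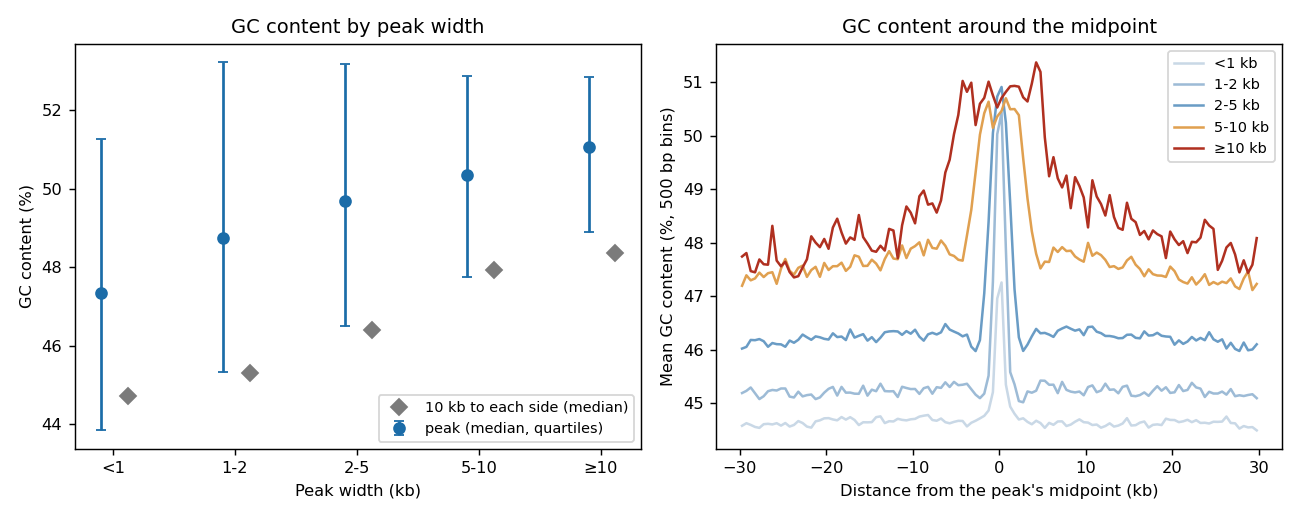
GC content by peak width in 5 classes (left; points are medians, bars the quartiles, grey diamonds the median of the 10 kb to each side) and mean GC content in 500 bp bins by distance from the midpoint in kb (right). Wide peaks have a median of 51.1% with flanks at 48.4%, and their profile is a broad plateau, as is that of peaks of 5 to 10 kb, while peaks under 5 kb show a narrow summit.

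The richest in GC was the 11.3 kb peak chr7:26026019-26037341 over Erf, an ETS-domain repressor, with 58.3%, and next came the 15.6 kb peak inside Cic, the repressor capicua, on the same chromosome, with 58.0%, and the 10.7 kb peak at Osgin1 and Necab2 with 57.9%. At the other end were intronic peaks in Lonp2 (42.5%), a peroxisomal protease gene, A230046K03Rik (42.6%) and Ranbp9 (43.2%), all between 10.1 and 11.4 kb wide. Peaks with a start and an end had a median of 52.3%, those with only a start 51.2%, those with only an end 50.5% and those with neither 49.2%. CpG dinucleotides numbered 16.4 per kb in the median wide peak, 15.6 per kb at 5 to 10 kb and 7.25 per kb in the median peak under 1 kb. Stretches that meet a CpG island rule (200 bp, GC over 50%, observed over expected CpG over 0.6) occurred in 90.2% of wide peaks. The share was 70.6% at 5 to 10 kb and 15.01% under 1 kb, and a longer interval is more likely to hold such a stretch. By bases they filled 10.1% of wide peaks, less than the 11.8% at 5 to 10 kb and the 16.8% in peaks of 1 to 2 kb.

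The enzymes used to cut the DNA (EcoRI, HindIII, BsrGI, SspI and XbaI) recognise AT-rich sites, and their number moved with GC content: over the wide peaks, sites per kb and GC content had a Pearson's r of -0.46 and a Spearman's rho of -0.44. A longer interval more readily holds a site. A wide peak held a median of 12 sites, or 0.916 per kb. Of the 429, 1 held none (0.23%), compared to 3.77% of peaks of 5 to 10 kb and 76.4% of those under 1 kb. Nearly all wide peaks thus spanned several restriction fragments. Site density was 0.963 per kb over all wide peaks and 1.36 per kb in their flanks. Narrower peaks were poorer in sites, with 0.777 per kb at 5 to 10 kb (flanks 1.41) and 0.540 per kb under 1 kb (flanks 1.59). Of the edges of wide peaks 41.5% lay within 100 bp of a site, compared to 29.4% of points 1 kb further out. Peaks of 5 to 10 kb had nearly the same shares, 39.8% and 27.0%. The shares were 36.1% and 28.1% for peaks of 2 to 5 kb and 21.0% and 27.0% for peaks under 1 kb. The part of the digestion in the widths was not tested.

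Wide peaks were seldom alone. The gap to the nearest other peak had a median of 3.39 kb (quartiles 1.39 and 8.97 kb), compared to 9.33 kb for narrower peaks, and 333 of 429 (77.6%) had a peak within 10 kb, compared to 51.3%. Within 100 kb the median wide peak had 7 other peaks and the median narrower peak 4, and 5 wide peaks had none. The nearest neighbour had a median width of 2.30 kb, compared to 1.32 kb for all peaks of the list. It was itself 10 kb or wider in 33 cases (7.69%), whereas wide peaks make up 1.94% of the list. Another wide peak lay within 10 kb of 34 peaks and within 100 kb of 141 (32.9%). Peaks of 5 to 10 kb resembled the wide ones, with a median gap of 3.83 kb and 73.5% having a peak within 10 kb.

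**Figure D5:**
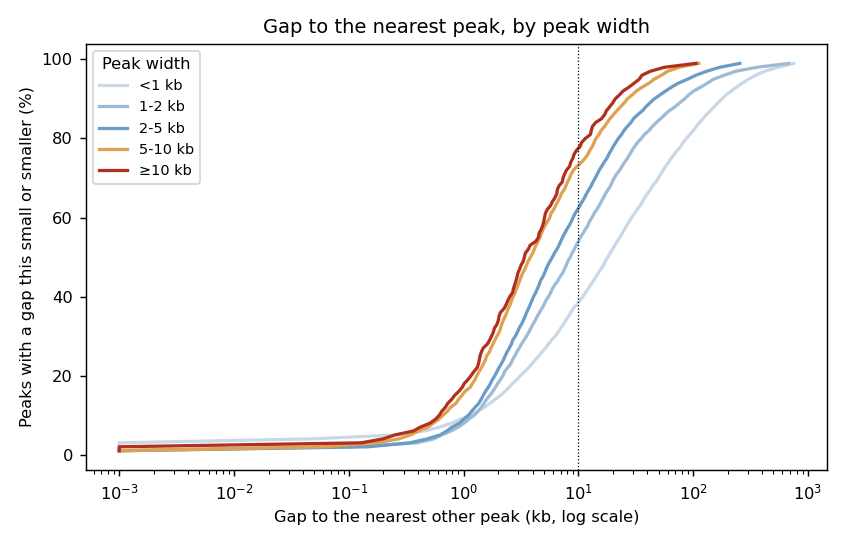
Cumulative share of peaks (y axis, percent) by the gap to the nearest other peak (x axis, kb, log scale), 1 line per width class, drawn from percentiles 1 to 99; the dotted line marks 10 kb. At that distance 77.6% of the peaks of 10 kb or wider and 38.6% of those under 1 kb have a neighbour.

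Gaps under 1 kb separated 77 wide peaks (17.9%) from another peak, and 10 abutted one with 1 bp between them, as at both wide peaks of Daam1. Across the list 305 pairs were separated by exactly 1 bp, whereas no other gap under 200 bp occurred more than 3 times, so that some listed peaks are adjoining pieces and the width depends on where a stretch was divided. The closest pair of wide peaks was on chromosome 10, where a 15.2 kb peak over Aes and a 28.6 kb peak over Tle2 and Tle6, all of the Groucho/TLE family of co-repressors, lay 647 bp apart. At Clic4, an intracellular chloride channel gene, peaks of 51.9 and 12.4 kb lay 1308 bp apart with a small peak between. The most crowded wide peak, at Zfp668, Zfp646, Prss53 and Vkorc1 on chromosome 7 (18.5 kb), had 21 other peaks within 100 kb, and the next 2, with 19 and 18, were both in Agap1.

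Several wide peaks lay in 26 protein-coding gene models, where Zfp664 counts under 2 identifiers. Agap1, an Arf GTPase-activating protein gene of 440 kb, held 4, of 36.7, 28.8, 24.0 and 19.02 kb, none of which held a gene end. They were 4 of its 30 peaks and covered 24.6% of it. Rnf169, a ubiquitin ligase gene of the DNA damage response, held 3 (16.8, 15.2 and 12.5 kb), which covered 61.4% of its 60.2 kb. The others held 2 each. In Kirrel3, an adhesion molecule gene of 551 kb, both (27.3 and 22.6 kb) lay near its end, 1859 bp apart. In Thra, the thyroid hormone receptor alpha gene, the 11.2 kb peak lay inside and the 16.4 kb peak ran over the gene end into Nr1d1, which encodes the clock repressor REV-ERB alpha. The remaining genes included Smg5, of nonsense-mediated decay, Srrt, of RNA cap-binding and miRNA processing, Hnrnpul1, Map3k1, Ece1, Prkd2, Nktr, Hip1, Svop and Sept9.

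By chromosome, 55 wide peaks were on chromosome 7, 42 on chromosome 11, 35 on chromosome 4 and 33 on chromosome 2. Chromosome 14 had 5, chromosome 13 had 6 and the X chromosome 3 of its 293 peaks. Wide peaks made up 3.37% of the peaks on chromosome 7 and 0.62% of those on chromosome 14. Per 1000 protein-coding genes there were 27.7 on chromosome 8, 26.5 on chromosome 7, 5.25 on chromosome 14 and 3.22 on the X chromosome.

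No protein-coding gene was overlapped by 13 wide peaks. Pvt1, the noncoding gene downstream of Myc, held 3 of them (20.4, 15.5 and 14.3 kb), which followed each other on chromosome 15. Malat1, an abundant nuclear RNA, lay whole inside an 11.7 kb peak. The 13 peaks also included 1 at 2900052L18Rik, and 1 at Gm3764, 2 at AI854517 and 1 at C130071C03Rik, the noncoding genes at the hairpins of miR-9. No annotated gene of any kind was overlapped by 4 peaks. The widest of them, chr15:85490519-85514366, was 23.8 kb wide with a GC content of 48.9%, and the narrowest, chr15:19637973-19648038, was 10.1 kb wide, held 1 restriction site, had flanks of 33.9% GC around a peak of 52.8%, and lay 1186 kb from the nearest other peak.

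The miR-9 genes were looked up after these values were seen. miR-9 is a brain-enriched miRNA that acts in neural progenitor proliferation and differentiation. RefSeq gives the same mature sequence for the 3 genes, shown 5′ to 3′ with its seed, bases 2 to 8, in capitals.
mmu-miR-9-5p: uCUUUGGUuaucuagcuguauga
The hairpins were placed on NCBI37/mm9 by exact match of the RefSeq sequence and are shown for those inside wide peaks, with the mature 5p arm in capitals.
Mir9-1, chr3:88019520-88019608, plus strand: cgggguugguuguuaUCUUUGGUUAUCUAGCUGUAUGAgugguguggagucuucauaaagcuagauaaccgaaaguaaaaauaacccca
Mir9-3, chr7:86650150-86650239, plus strand: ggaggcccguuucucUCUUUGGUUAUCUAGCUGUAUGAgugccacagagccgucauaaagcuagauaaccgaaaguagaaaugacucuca
The Mir9-1 hairpin lay in the 28.6 kb peak of rank 23, chr3:88009189-88037822, and the Mir9-3 hairpin in the 13.96 kb peak chr7:86647443-86661398. The Mir9-2 hairpin on chromosome 13 lay in a peak of 8.43 kb, and 6.33 kb from the 12.7 kb peak over C130071C03Rik. Wide peaks at the noncoding genes of these 3 loci had been seen before the lookup, so finding one at or near each hairpin is no test. The share of other hairpins this near a wide peak was not computed.

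The same search was made for all mouse hairpins in RefSeq. Of 1005 hairpins, 986 had a single exact match, 148 of these lay inside an R-loop peak and 30 inside a wide one, which is 20.3% of the 148, where wide peaks hold 13.2% of the covered bases. Wide peaks held 4.65 hairpins per Mb and narrower peaks 2.77 per Mb, with 3.75 per Mb at 5 to 10 kb. The 30 hairpins lay in 26 peaks. The peak with Mir9-1 also held Mir3093 and, on the opposite strand, the hairpin of miR-9b, and the peak over Srebf1 held Mir6921 and Mir6922. The Brd3 peak held Mir7578, and the Abcf1 peak held Mir877.

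The 16 gene lists were described by how many members lay under a wide peak. In all, 28 of the 515 members matched to the annotation did (5.44%), beside 2.96% of all protein-coding genes. Of the 368 members with any peak these 28 were 7.61%, beside 7.47% of protein-coding genes with any peak, so the lists as a whole did not stand out from other genes with a peak. The members included 24 noncoding and snoRNA host genes, 3 of them under a wide peak, whereas both comparison shares count protein-coding genes alone. In 4 lists of transcription factors (Sox, forebrain homeobox and patterning, nuclear factor I and Zic, bHLH and Id), 0 of 92 matched genes had a wide peak while 52 had a narrower one. The widest of those peaks was 9.23 kb at Meis2, followed by 9.11 kb at Mxd4, 8.41 kb at Sox12, 8.38 kb at Sox13, 8.12 kb at Nfix and 8.03 kb at Olig2. The median of the widest peak over the 52 genes was 3.10 kb. The peaks just named all exceed 8 kb, so the count of 0 holds for the limit of 10 kb and not for one of 8 kb. The 52 genes had a median length of 12.8 kb. No wide peak lay over the 26 Notch pathway genes, of which 16 had a peak, the 16 Hedgehog pathway genes, of which 10 had one, or the 42 genes of extracellular matrix, adhesion and astroglia, of which 31 had one. Whether these counts of 0 differ from the shares of 7.47% and 2.96% was not tested.

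Wide peaks lay over 4 of 39 Wnt pathway genes (30 with any peak). Beside this count and those that follow stand the shares of 2.96% of all protein-coding genes and 7.47% of those with any peak. No difference from these shares was tested. Ctnnb1, which encodes beta-catenin, held a 10.8 kb peak inside the gene, and Axin2, a feedback inhibitor of the pathway, an 11.2 kb peak with a GC content of 54.9% that covered 36.8% of the gene. The 28.6 kb peak over Tle2 covered it whole. The 10.2 kb peak at Dvl2, a transducer of Wnt signals, covered 9.81% of that gene and abutted another peak.

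Chromatin regulators had 6 of 65 (58 with any peak). Kdm6b, an H3K27 demethylase, was covered for 93.0% by a 17.2 kb peak with a GC content of 57.0%, and Cbx6, a Polycomb reader, for 94.5% by an 11.3 kb peak. Both of these peaks held the gene start. Ehmt2, an H3K9 methyltransferase, was covered for 63.0% by a 10.8 kb peak with 56.1% GC. The peaks at Chd4, the remodeler of the NuRD complex (11.3 kb), and at Kdm5c, an X-linked demethylase (10.2 kb), covered 27.5% and 18.3% of their genes, and Brd3 was the widest of the list.

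Genes of RNA processing and translation gave 4 of 45 (39 with any peak) and 3 of 32 (29 with any peak). Srrm2, a component of nuclear speckles, held a 14.2 kb peak with a GC content of 44.9%. Hnrnpl was covered for 63.8% by a 10.8 kb peak, while the 15.8 kb peak at Ddx17, an RNA helicase, and the wider of the peaks at Hnrnpul1 (18.9 kb) covered 16.9% and 16.7% of their genes and also ran over neighbouring genes. Eef1g, an elongation factor subunit, was covered for 78.01% by a 24.6 kb peak that reached Ahnak, and Eif4a1, the cap-binding complex helicase, lay whole inside a 10.4 kb peak. The 15.5 kb peak in Eif4g3 covered 7.17% of that 215 kb gene.

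Of the actins, tubulins and their partners 3 of 37 were overlapped (32 with any peak). Cfl1, which encodes the actin-severing cofilin, lay whole inside a 13.7 kb peak although the gene is 3.54 kb long, and Pfn1, 2.80 kb long, lay whole inside the 27.6 kb peak named above. Map1a, a microtubule-associated protein gene, was covered for 74.3% by a 15.8 kb peak. Receptor tyrosine kinases gave 2 of 25 (17 with any peak). The peaks were 10.4 kb over the end of Fgfr1 and 10.8 kb over the end of Axl, of which 5.80% and 13.6% were covered. Axon guidance genes gave 2 of 48 (28 with any peak), Ephb4 (10.2 kb) and Plxna1 (10.3 kb). The cyclins, CDKs and G1 regulators gave 1 of 24 (14 with any peak), Ccnd2. The noncoding and snoRNA host genes gave 3 of 24 (12 with any peak), which were Malat1, Pvt1 and the Mir9-3 host.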

How the data were processed

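The authors' DRIP-seq reads were trimmed (Trim Galore 0.6.6 in the submitters' notes) and peaks were called by a hidden Markov model on NCBI37/mm9, per the methods. How the 3 replicates were combined is not given in the sources used here. The deposited list holds chromosome, start and end, with no count, score or signal, so depth and precision per peak are unknown. Start was read as 0-based, which leaves 1 base of doubt. Gene parts, overlap (1 bp), GC content, restriction sites and gaps were computed with Python 3 scripts (numpy, scipy for exact binomial intervals, 95%), tested on simulated data, from the mm9 sequence and GENCODE M1. Gene names missing there were matched through RefSeq synonyms. Named peaks follow a rule: ranks 4 to 15, the 3 extremes of GC content, those around the limit, the widest without a gene, the 3 closest pairs, the 3 most crowded, genes with several wide peaks, and list members. The peak with the most genes, the most isolated one and those with miRNA hairpins were chosen after their values were seen. Members and lists were chosen with earlier results of these data known. The peak of rank 4 and 1 of the closest pairs are not reported here. One sample has a file, and no comparison between groups was made.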

Additional observations from a re-analysis of the deposited data

How the results depend on the processing

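No paired analysis was possible because a single peak list was used. Of 63 alternative values for 12 results, 38 stayed within 1.5 times (counts) or within the 95% interval of the value reported and 25 moved. The interval depends on the number of peaks, and the alternatives draw on the same list. These labels therefore sort the changes by size and do not measure stability. A limit of 8 kb gave 784 peaks and 1083 genes, a TSS in 38.1%, a TES in 60.1% and 0.848 restriction sites per kb. A limit of 15 kb gave 137 peaks, 231 genes, 54.0% of midpoints in introns and 0.978 sites per kb. Merging peaks with gaps under 1 kb gave a median gap of 4.87 kb. With all annotated genes, 50.3% held a TSS and 99.1% overlapped a gene, and with every protein-coding transcript 55.5% held a TSS and 73.9% a TES. In the central 1 kb the median GC content was 50.5%. With the midpoint inside the gene, 87.4% of peaks and 374 genes counted, and with more than 50% of the peak inside, 81.6%. Promoters of 2 kb to each side took 35.0% of midpoints and left 37.5% to introns. With protein-coding transcripts alone, introns had 53.4% and promoters 6.06%. By bases, 8.88% was intergenic. With peaks of at least 1 kb as the only neighbours, the gap was 5.06 kb and 68.8% had a peak within 10 kb. Joining peaks 1 bp apart, an alternative chosen after seeing the data, gave 432 peaks. GC content without repeats was not run, since the reference used here has no masked letters. Peaks holding a gene end stayed more frequent than peaks holding a start under each of these limits and gene sets. By midpoint the order depended on the setting: with promoters of 2 kb to each side, 11.9% fell in termination sites, below the 35.0% in promoters.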
